A study of Mus musculus with 2 samples.

Results

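The protein factors that start and extend polypeptide chains on the cytosolic ribosome were examined in ES-E14, a mouse embryonic stem cell line of strain 129/Ola taken from a male embryo. The members were chosen by name: every protein-coding gene of the mouse annotation whose symbol begins with Eif1 to Eif6 or with Eef1 or Eef2, with the Y-linked Eif2s3y left out. The annotation held 67 such genes, and 66 had a row in the gene tables, 54 initiation genes and 12 elongation genes, among 43346 genes of which 21474 were protein-coding. The remaining one, Eef1akmt4, had no row. Total RNA was sequenced as 2 libraries, labelled biological replicates 1 and 2. The labels name no treatment, genotype or batch and point both to the same biosample, so what separates the libraries may be technical. All cells belong to a single line, which limits what they show of other embryonic stem cells. Values are TPM, each transcript's abundance corrected for its length and scaled to a fixed sum per library, in the order replicate 1, replicate 2, and an SD is over n = 2 libraries. With 1 group there was no contrast between conditions, and 2 against 2 values cannot give an exact p below 0.333, so sizes are set beside the spread between the libraries.

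In initiation, eIF2 carries the initiator tRNA to the small ribosomal subunit as a complex with GTP, and eIF2B recharges eIF2 with GTP afterwards. The cap-binding protein eIF4E, the scaffold eIF4G and the helicase eIF4A bring the subunit to the capped end of the mRNA, eIF3 links mRNA complex and subunit, and eIF1 and eIF1A keep the subunit scanning until it meets a start codon. In elongation, eEF1A delivers each charged tRNA, eEF1B recharges eEF1A, and eEF2 moves the ribosome along by a codon. Embryonic stem cells are known for low global protein synthesis compared with their differentiated progeny, and phosphorylation of eIF2 and of the eIF4E binding proteins is the textbook control point of initiation.

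The gene tables held 43163300 and 45573512 expected counts. All 8 embryonic stem cell markers reached 1 TPM in each library, with Pou5f1 at 162.43 and 201.07 TPM. Of 6 fibroblast markers 5 were detected and Lum was listed at 0. The fibroblast list summed to 47.31 TPM in replicate 1 and 153.2 TPM in replicate 2; in bulk RNA, fewer cells of a type and less RNA per cell cannot be told apart. Of the neuron, muscle and oocyte lists, Tubb3 (13.28 and 27.12 TPM) and Zp3 (3.1 and 2.94 TPM) were the only genes that reached 1 TPM in each library.

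Nearly the whole set was expressed. Of the 66 members, 62 were detected, meaning 1 TPM or more in both libraries, against 46.3% of all protein-coding genes, and 44 reached 10 TPM in both. The members together held 1.393% (95% Wilson interval 1.389 to 1.396) and 1.69% (1.687 to 1.694) of all counts, intervals that cover counting error only. Of the summed TPM of nuclear protein-coding genes they held 2.802% and 2.91%, so the size of the difference between the libraries depended on the measure. Elongation genes, 12 of the 66, held 59.26% and 55.98% of the members' summed TPM, and Eef1a1 alone 35.66% and 34.91%. The median detected member stood at 24.76 and 33.7 TPM, and the median detected protein-coding gene at 5.765 and 6.81 TPM.

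**Figure D1:**
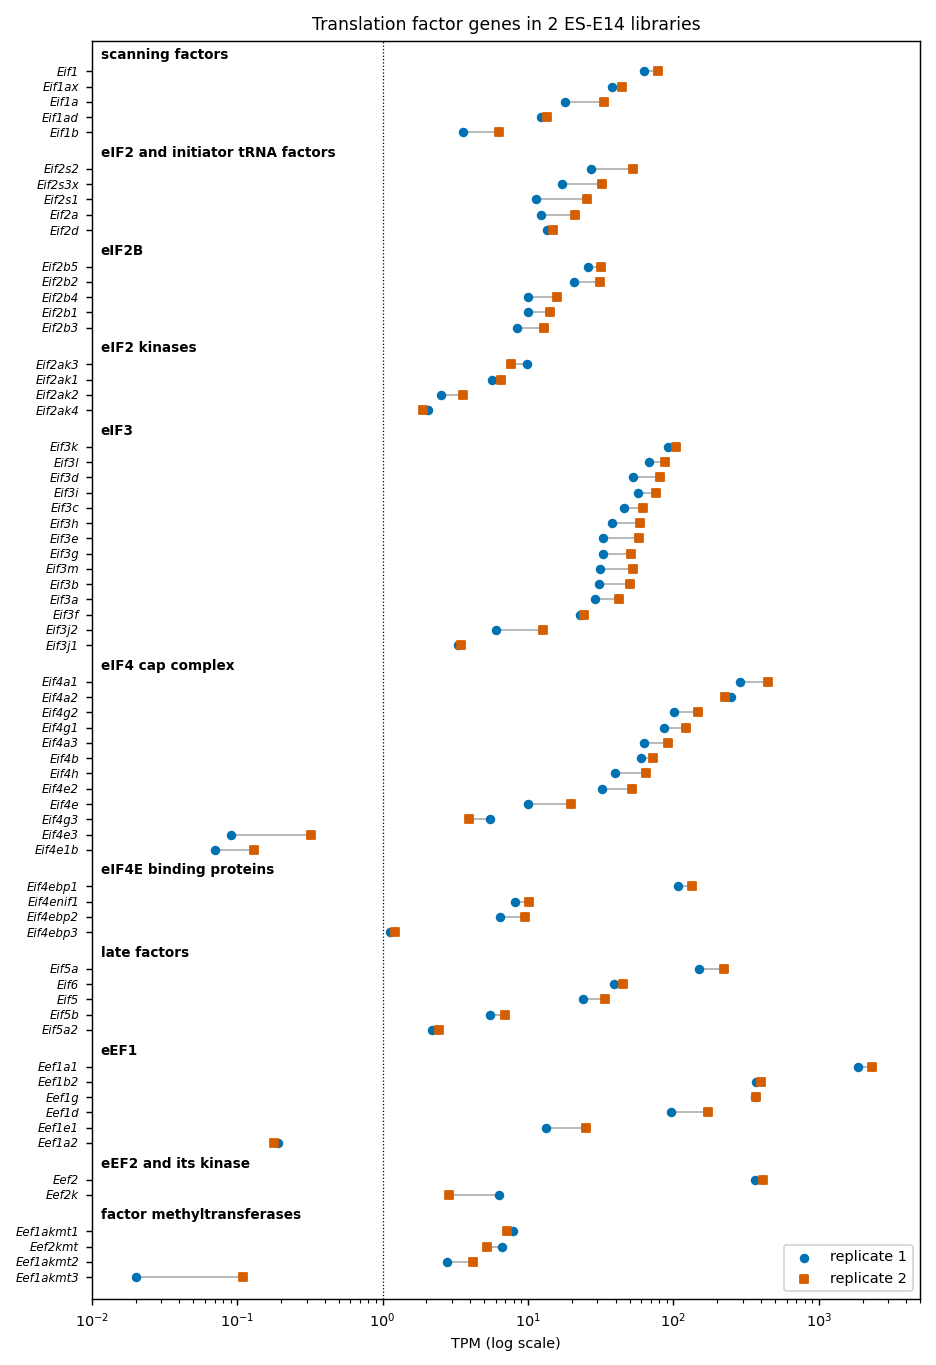
TPM of each of the 66 members on a log axis, grouped by factor complex and sorted by mean within a group; circles are replicate 1, squares replicate 2, and the dotted line marks 1 TPM. The 4 members to the left of the line in both libraries are Eef1a2, Eif4e3, Eif4e1b and Eef1akmt3, and Eef1a1 stands farthest to the right.

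The elongation factor eEF1A was supplied by Eef1a1 among the 2 genes that encode it. Eef1a1 (chromosome 9, 78478449 to 78489151, minus strand, mm10) stood at 1864.27 and 2324.86 TPM, a mean of 2094.6 ± 325.7 (SD, n = 2), and ranked 3 among protein-coding genes in both libraries. Its paralog Eef1a2, known as the form of adult neurons and muscle, was at 0.19 and 0.18 TPM. The log2 ratio of the pair was 13.26 and 13.66. The 28 and 25 counts of Eef1a2 carried exact 95% Poisson intervals of 18.61 to 40.47 and 16.18 to 36.9 counts, so the gene was above a count of 0 and far below detection. Of the 5 neuron markers Tubb3 (13.28 and 27.12 TPM) was the only one detected, and of the 5 muscle markers none was, with Actn2 highest at 0.91 and 1.29 TPM.

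The 2 coding sequences are alike but can be told apart by reads. Their alignment was identical at 1110 of 1386 aligned bases, 80.09%. The opening 60 coding bases, from the annotated transcripts, are shown to make the density of differences visible, with bases that differ between the paralogs in capitals. There were 11 such bases in 60, spread over the whole stretch.
Eef1a1: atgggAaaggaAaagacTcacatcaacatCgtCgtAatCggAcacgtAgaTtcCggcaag
Eef1a2: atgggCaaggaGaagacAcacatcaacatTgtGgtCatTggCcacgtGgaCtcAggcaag

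The eEF1B subunits, which exchange the nucleotide on eEF1A, stood well below it. Eef1b2, the catalytic alpha subunit, was at 370.08 and 400.09 TPM and Eef1g, the structural gamma subunit, at 365.21 and 369.91 TPM. Eef1d, the delta subunit with a second exchange domain, was at 96.56 and 173.25 TPM. Eef1d was thus the lowest of the 3 in both libraries, and Eef1b2, the highest by gene TPM, exceeded it 3.833-fold and 2.309-fold. Counting only transcripts annotated as protein-coding, Eef1g was highest, at 239.19 and 280.04 TPM against 125.51 and 188.21 TPM for Eef1b2. Eef1e1, a scaffold protein of the multi-synthetase complex that carries an eEF1-type name, was far lower, at 13.27 and 25.18 TPM.

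The translocase Eef2 was at 364.96 and 415.53 TPM from a single annotated transcript, close to Eef1b2 and Eef1g and far below Eef1a1. Its inhibitory kinase Eef2k was at 6.29 and 2.88 TPM. Among the lysine methyltransferases that modify the elongation factors, Eef1akmt1 was at 7.86 and 7.13 TPM and Eef2kmt at 6.68 and 5.24 TPM. Eef1akmt2 reached 2.79 and 4.22 TPM, with most of it from a retained-intron transcript. Eef1akmt3 was not detected, at 0.02 and 0.11 TPM from 4 and 21 counts (exact 95% Poisson intervals 1.09 to 10.24 and 13 to 32.1).

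Among the scanning factors Eif1 and the 2 eIF1A genes led. Eif1, which guards the choice of start codon, was at 63.26 and 78.02 TPM. Its near copy Eif1b was at 3.57 and 6.29 TPM, 17.72-fold and 12.4-fold below. Eif1ad, an eIF1A-domain protein, was at 12.26 and 13.57 TPM. The eIF1A protein is encoded by the X-linked Eif1ax (37.64 and 44.23 TPM) and the autosomal Eif1a (17.94 and 33.57 TPM), and which of them led depended on the measure, as given with the transcripts.

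All 3 eIF2 subunits were present at similar levels, with the beta subunit Eif2s2 highest at 26.98 and 53.16 TPM. Eif2s3x, the X-linked gamma subunit that binds the initiator tRNA, was at 17.04 and 32.14 TPM. It stands for the gamma subunit alone here, because the Y-linked Eif2s3y was left out by the rule. Eif2s1, the alpha subunit whose phosphorylation stops initiation, was lowest at 11.29 and 25.35 TPM. The order of the 3 was the same in both libraries and the highest exceeded the lowest 2.39-fold and 2.097-fold. Eif2a and Eif2d, factors able to deliver initiator tRNA without eIF2, were at 12.29 and 21.14 TPM and at 13.49 and 14.91 TPM. In replicate 1 both lay above Eif2s1 and in replicate 2 both lay below it. Counting only transcripts annotated as protein-coding, both lay below Eif2s1 in each library. Eif2a was then at 8.70 and 15.35 TPM and Eif2d at 9.34 and 12.60 TPM, with Eif2s1 unchanged.

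The 5 eIF2B subunits lay within a 3.044-fold and 2.467-fold range. Eif2b5, the catalytic epsilon subunit, was highest at 25.69 and 31.67 TPM, and Eif2b2 (beta) followed at 20.8 and 31.18 TPM. Eif2b4 (delta) was at 10.05 and 15.85 TPM and Eif2b1 (alpha) at 10.05 and 14.2 TPM. Eif2b3 (gamma) was lowest by gene TPM, at 8.44 and 12.84 TPM. Counting only transcripts annotated as protein-coding, Eif2b2 was at 7.25 and 10.53 TPM and Eif2b3 at 6.87 and 11.05 TPM. The order below Eif2b5 thus depended on the measure. The epsilon subunit was thus above the gamma subunit, its partner in the catalytic subcomplex, in both libraries.

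The 4 kinases that phosphorylate eIF2 alpha were all detected at low levels, with a median of 4.105 and 5.03 TPM. Eif2ak3 (PERK, which senses unfolded protein in the endoplasmic reticulum) was highest at 9.92 and 7.66 TPM, and Eif2ak1 (HRI, the heme-regulated kinase) came next at 5.69 and 6.5 TPM. Eif2ak2 (PKR, activated by double-stranded RNA) was at 2.52 and 3.56 TPM and Eif2ak4 (GCN2, activated by uncharged tRNA) at 2.06 and 1.91 TPM. Neither the lead of Eif2ak3 over Eif2ak1 nor that of Eif2ak2 over Eif2ak4 exceeded 2 SD of the log2 ratio. On the downstream side, the stress transcription factor Atf4 was at 36.75 and 54.85 TPM and the phosphatase subunits Ppp1r15a and Ppp1r15b were at 6.04 and 8.64 TPM and at 23.23 and 22.15 TPM.

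The eIF3 complex was represented by 14 genes, all detected, with a median of 32.78 and 55.36 TPM. Eif3k, a small peripheral subunit, was highest at 92.1 and 104.93 TPM. Next came the peripheral subunit Eif3l at 68.34 and 87.49 TPM. Eif3d, a subunit able to bind the cap of some mRNAs, was at 52.68 and 81.48 TPM. The beta-propeller subunit Eif3i was at 57.18 and 76.49 TPM. Eif3c, which anchors the core together with Eif3a, was at 45.59 and 61.77 TPM, and Eif3a, the largest subunit, was lower at 29.04 and 42.52 TPM.

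A middle tier of eIF3 subunits was tightly spaced. Eif3h stood at 37.59 and 58.71 TPM, Eif3e at 32.62 and 57.71 TPM, and Eif3m at 31.37 and 53.0 TPM, all members of the octamer core. Eif3g, the RNA-binding subunit, was at 32.94 and 51.47 TPM and Eif3b, the other scaffold subunit, at a mean of 40.28 ± 13.74 TPM (SD, n = 2). Differences among these 5 genes within a library were smaller than the difference of each between the libraries. Eif3f was the lowest of the stable subunits, at 22.94 and 24.1 TPM. Across the 12 genes other than the eIF3j pair, the highest exceeded the lowest 4.015-fold and 4.354-fold, and with that pair the range was 28.08-fold and 30.15-fold.

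The loosely bound subunit eIF3j is encoded by Eif3j1 and Eif3j2. Eif3j1 was at 3.28 and 3.48 TPM and Eif3j2 at 6.06 and 12.71 TPM, with Eif3j2 higher in both libraries. Their coding sequences, of 783 and 789 bases, were identical at all 783 aligned bases and differed by 6 gap columns, so reads that do not cross the gap cannot be told apart within the coding part. The only transcript of Eif3j2 is 2379 bases long, while that of Eif3j1 that encodes the protein has 5413 bases. The quantifier's posterior SD was 2.455% and 2.196% of the count for Eif3j1 and 1.393% and 0.8966% for Eif3j2. Their mean log2 ratio of -1.38 was within 2 SD (SD 0.70, n = 2), and the values of both are uncertain because of the shared sequence.

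In the cap complex the helicase genes Eif4a1 and Eif4a2 led, followed by the scaffold genes Eif4g2 and Eif4g1. Eif4a1 was at 288.88 and 447.84 TPM, Eif4a2 at 248.22 and 227.13 TPM, and Eif4a3, the paralog of the exon junction complex, at 63.06 and 92.28 TPM. The scaffold Eif4g1 was at 86.59 and 121.45 TPM and Eif4g2 (DAP5), which lacks the site for eIF4E, at 100.25 and 148.67 TPM. Eif4g3 was at 5.46 and 3.91 TPM, 15.86-fold and 31.06-fold below Eif4g1. The helicase cofactors Eif4b and Eif4h were at 59.68 and 72.17 TPM and at 39.43 and 65.0 TPM.

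Eif4e, the cap-binding protein of canonical initiation, was at 10.06 and 19.91 TPM, below Eif4g1, Eif4g2 and the 3 helicase genes and above Eif4g3 in both libraries. Eif4e2 (4EHP), which binds the cap without binding eIF4G in the canonical way, was higher, at 32.08 and 51.98 TPM. Eif4e was 0.3136 and 0.383 of Eif4e2 by TPM. By expected count, which is not corrected for length, the ratio was 0.71 and 0.9278, with the same order. Eif4e3 was not detected, at 0.09 and 0.32 TPM from 16.42 and 55.73 counts. Eif4e1b, the oocyte form, was not detected either, at 0.07 and 0.13 TPM from 7 and 14 counts (exact 95% Poisson intervals 2.814 to 14.42 and 7.654 to 23.49), and of 5 oocyte markers only Zp3 was detected.

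The eIF4E binding proteins, which compete with eIF4G for eIF4E until mTOR phosphorylates them, were dominated by Eif4ebp1 at 107.25 and 133.89 TPM. Eif4ebp2 was at 6.44 and 9.51 TPM, 16.65-fold and 14.08-fold below. Eif4ebp3 was at 1.12 and 1.21 TPM, 95.76-fold and 110.7-fold below Eif4ebp1, and its counts carried a posterior SD of 10.39% and 14.74%. The transcript of Eif4ebp1 was thus more abundant per length than that of Eif4e, its target, in both libraries. Eif4enif1, the transporter that carries eIF4E to the nucleus, was at 8.12 and 10.14 TPM.

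Of the factors that act when the subunits join and after, Eif5a led with 149.25 and 224.43 TPM. Eif5a, the hypusine-containing factor that helps peptide bonds form at difficult sequences, exceeded its paralog Eif5a2 (2.19 and 2.43 TPM) 68.15-fold and 92.36-fold. Eif6, which keeps large subunits apart from small ones, was at 38.76 and 44.92 TPM, and Eif5, the GTPase activator of eIF2, at 23.83 and 33.84 TPM. Eif5b, the GTPase of subunit joining, was at 5.52 and 7.0 TPM. The enzymes that make hypusine, Dhps and Dohh, were at 10.08 and 14.29 TPM and at 36.03 and 40.12 TPM.

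Eif5a and Eif5a2 differ more densely at their start than the eEF1A pair. In the opening 60 coding bases, shown with differing bases in capitals, 17 differed. Over the 459 aligned bases identity was 72.77%.
Eif5a: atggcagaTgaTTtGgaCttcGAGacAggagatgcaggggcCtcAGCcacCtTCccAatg
Eif5a2: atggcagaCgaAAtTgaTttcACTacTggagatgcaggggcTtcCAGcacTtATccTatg

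Paralogs kept their order. In 10 families the members formed 26 pairs, and in all 26 the same gene was higher in both libraries by TPM. In 20 pairs the mean log2 ratio was over 2 SD. The 6 pairs within 2 SD were Eif1ax and Eif1a, Eif4a1 and Eif4a2, Eif4e3 and Eif4e1b, Eif3j1 and Eif3j2, Eif2ak1 and Eif2ak3, and Eif2ak2 and Eif2ak4.

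**Figure D2:**
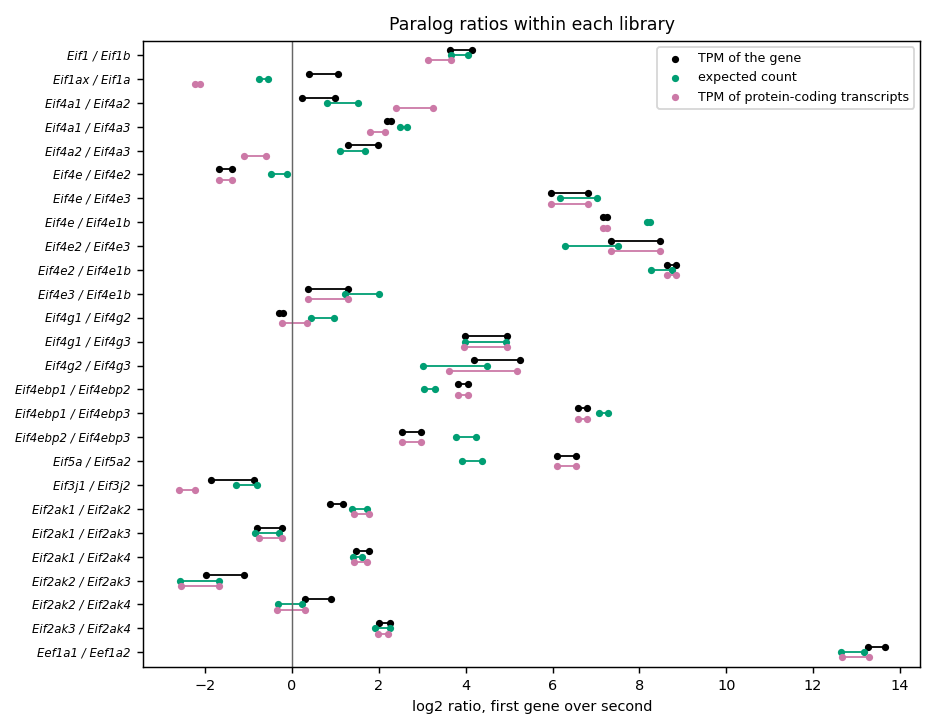
Log2 ratio of the first-named over the second-named gene for 26 paralog pairs, with 1 point per library joined by a line, by gene TPM (black), expected count (green) and TPM of protein-coding transcripts (pink). Points on the other side of the zero line show a pair whose order depends on the measure, such as Eif1ax and Eif1a.

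The order of 3 pairs differed between TPM and expected count in at least 1 library, those of Eif1ax with Eif1a, Eif4g1 with Eif4g2, and Eif2ak2 with Eif2ak4. Counting only the TPM of transcripts annotated as protein-coding, a measure chosen after seeing the data, it differed for 4 pairs, those same 3 and Eif4a2 with Eif4a3. By that measure Eif4a1 exceeded Eif4a2 5.259-fold and 9.529-fold, against 1.164-fold and 1.972-fold by gene TPM. Eif1ax was 0.2285 and 0.2127 of Eif1a, against 2.098-fold and 1.318-fold above it by gene TPM. By the deposited posterior mean TPM the order of Eif4e3 and Eif4e1b, both undetected, was the other way round in both libraries. Between Eif4g1 and Eif4g2 the protein-coding ratio was 1.266 and 0.8579, so that neither led in both libraries.

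The transcript tables divide each gene's output among its transcripts, most simply in Eif1ax. Eif1ax (chromosome X, 159372178 to 159389928, plus strand) has 2 transcripts in the tables. The retained-intron transcript Eif1ax-202, 416 bases long, took 89.1% and 83.85% of the gene's output from 676.78 and 704.03 counts. The protein-coding transcript Eif1ax-201, 5172 bases long, took 10.9% and 16.15% from 1598.22 and 2651.97 counts. More reads thus fell on the coding transcript, while the length correction gave the larger level to the short one.

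For Eif4a2 (chromosome 16, 23107444 to 23114136, plus strand) 85.09% and 83.28% of TPM came from transcripts not annotated as protein-coding, among 24 transcripts. Protein-coding transcripts were at 37.00 and 37.98 TPM. The most abundant transcript was the retained-intron Eif4a2-211 in replicate 1 (37.58 and 28.47 TPM) and the coding Eif4a2-202 in replicate 2 (36.32 and 37.41 TPM). For Eif4a1 (chromosome 11, 69666936 to 69672423, minus strand) the corresponding share was 32.64% and 19.19%, and its coding transcript Eif4a1-213 was at 194.59 and 361.9 TPM.

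The coding sequences of these helicase paralogs, identical at 840 of 1083 aligned bases (77.56%), are distinct enough for reads to be assigned. That of Eif4a1-213 has 1218 bases and that of Eif4a2-202 has 1086, and 138 gap columns were left out of the identity. The earliest 60 aligned bases without a gap are shown, coding positions 37 to 96 of Eif4a1-213 and 40 to 99 of Eif4a2-202, with the 11 differing bases in capitals.
Eif4a1: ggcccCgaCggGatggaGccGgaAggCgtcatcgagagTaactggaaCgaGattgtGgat
Eif4a2: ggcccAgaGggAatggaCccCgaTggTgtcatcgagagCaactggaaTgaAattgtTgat

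A processed copy of the family also drew reads: the pseudogene Eif4a-ps4 held 1472.67 and 4211.76 counts, at 17.85 and 53.74 TPM. Its posterior SD was 36.64 and 61.78 counts. The corresponding SD of Eif4a1 was 0.1097% and 0.121% of its 33585.99 and 50891.23 counts. In counts, that is about the size of the pseudogene's SD. The posterior SD of 45 members was 0 in both libraries. It exceeded 1% of the count in a library for Eif3j1, Eif3j2, Eif4e3 and Eif4ebp3.

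**Figure D3:**
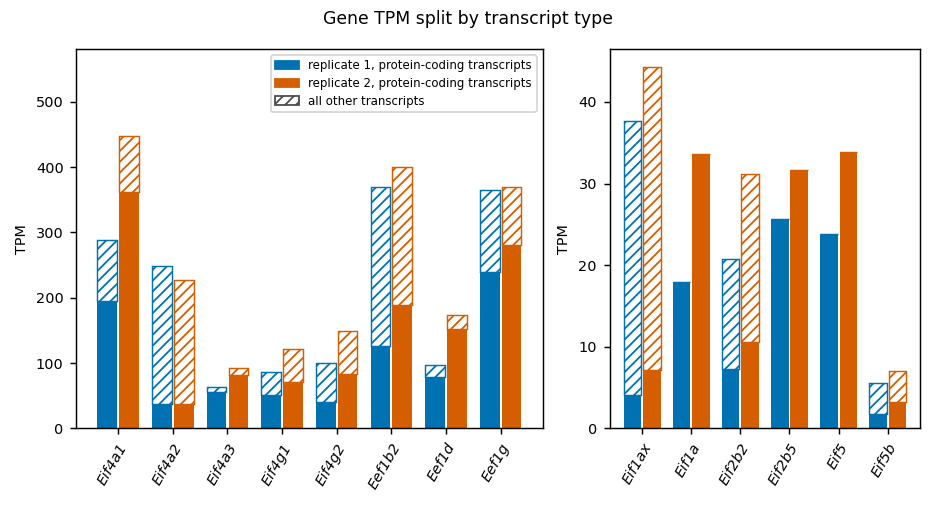
Gene TPM of selected members in replicate 1 (blue) and replicate 2 (orange), split into protein-coding transcripts (filled) and all other transcripts (hatched); both panels start at 0 and have their own TPM scale. The hatched part is the larger in Eif4a2, Eef1b2, Eif1ax, Eif2b2 and Eif5b in both libraries and is absent in Eif1a, Eif2b5 and Eif5.

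Transcripts that are not protein-coding gave 50% or more of TPM in both libraries in 6 of 62 detected members, against 8.88% of detected protein-coding genes. The 6 were Eef1akmt2, Eef1b2, Eif1ax, Eif2b2, Eif4a2 and Eif5b, a share of 9.677% and near the background. In Eef1b2, the coding Eef1b2-209 was at 109.49 and 162.96 TPM and the nonsense-mediated decay transcript Eef1b2-205 at 150.39 and 123.07 TPM. In Eif5b the 578-base processed transcript Eif5b-203 was at 2.72 and 2.4 TPM and the 7797-base coding Eif5b-201 at 1.73 and 3.23 TPM. In Eif2b2 retained-intron transcripts Eif2b2-206 (6.0 and 9.63 TPM) and Eif2b2-203 (5.14 and 8.24 TPM) stood beside the coding Eif2b2-201 (6.72 and 9.29 TPM).

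The share from such transcripts was lower in replicate 2 for 30 members and higher for 4, with 28 under 0.5% in both. Over the 9942 detected protein-coding genes it was lower for 4180 and higher for 1786, with 3946 under 0.5% in both. The members' median share was 5.043% and 3.591%, and that of detected protein-coding genes 6.833% and 5.468%. In Eif6 the nonsense-mediated decay transcript Eif6-207 took 20.91% of the gene in replicate 1 and 4.75% in replicate 2. The share of all transcripts not annotated as protein-coding was 59.77% and 43.82% of TPM in Eif4g2, and 60.67% and 40.23% in Eif3j1.

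Of the members that reached 10 TPM in each library, 27 had more than 1 annotated transcript, and 23 of these had the same leading transcript in both, against 88.9% of protein-coding genes under the same limit. The 4 others were Eif2b2, Eif4g2, Eif4a2 and Eef1b2. The leading transcript was not protein-coding in both libraries for 1 member, Eif1ax, against 7.76% of those genes. In Eif4g2 the leading transcript was Eif4g2-213 in replicate 1 and Eif4g2-206 in replicate 2, both protein-coding. The annotated coding sequence of Eif4g2-206 opens with GTG and not ATG; the protein is known to begin at a codon other than AUG.

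Several of these genes carry small nucleolar RNAs, guides for the modification of ribosomal RNA, in their introns. Within 9 members (Eef1b2, Eef2, Eif2ak3, Eif3a, Eif4a1, Eif4a2, Eif4g1, Eif4g2 and Eif5) the annotation places 18 snoRNA genes on the same strand, of which 17 had a row and 10 held more than 3 counts in both libraries. Inside Eif4a1, Gm25835 (144 bases) held 11838.0 and 6250.0 counts and Gm22988 3892.4 and 2375.92 counts, while the host held 33585.99 and 50891.23. The snoRNA genes of Eif4a1 were thus lower in replicate 2 and their host higher. Inside Eif4g2, Gm23262 held 10341.19 and 9722.23 counts, and inside Eif4a2, Gm26447 held 4244.06 and 4395.01 counts.

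These counts limit the reading of host and guest alike. Gm26447 lies in an exon of 2 retained-intron transcripts of Eif4a2 that together took 14.65% and 13.44% of that gene, so reads there may belong to either. The same limit holds inside Eif4a1 for Gm22988, in an exon of 1 transcript (6% and 3.65% of the gene). It also holds there for Gm24029, in exons of 2 transcripts (9.19% and 4.51%), while Gm25835 lies in no exon of its host. For 5 of the snoRNA genes a TPM of 0 was listed in a library beside a count above 0, Gm26447 among them, and TPM was therefore not used for them. Snord37 in Eef2, Snord66 in Eif4g1, Snord2 in Eif4a2 and Snora19 in Eif3a were listed at 0 counts in both libraries.

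A start on a C followed by a run of pyrimidines marks mRNAs whose translation depends on mTOR, a class known to include ribosomal proteins and elongation factors. The annotated starts were read from RefSeq promoter windows on GRCm38.p6, which hold 50 of the members. A C followed by 4 or more bases that are each C or T, on the gene's strand and within 10 bases of an annotated start, was found in 17 of the 50, against 34.4% of the 27025 genes of the table. That share, 34% of the members, was at the background. Exactly at the start it was found in 2 members, Eif2s3x and Eif3f, or 4% against 3.008% of genes. With 6 or more following pyrimidines it was found in 11 members, 22% against 14.14% of genes. Within 20 bases of a start it was found in 24 members, 48% against 53.33% of genes. Neither difference was tested.

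The windows with the longest runs among the members are shown with Eef1a1, the most abundant, each 30 bases with 10 before the annotated start, the run in capitals. The windows are chr7:108934405-108934434 (plus) for Eif3f, chr16:20498807-20498836 (plus) for Eif2b5, chrX:94212632-94212661 (minus) for Eif2s3x and chr9:78481705-78481734 (minus) for Eef1a1.
Eif3f: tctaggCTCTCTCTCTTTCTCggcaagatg
Eif2b5: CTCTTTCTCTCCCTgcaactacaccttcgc
Eif2s3x: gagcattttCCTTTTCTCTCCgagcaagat
Eef1a1: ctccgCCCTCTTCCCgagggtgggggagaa

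The runs were 15, 14, 12 and 10 bases long. In Eif2s3x and Eif3f the annotated start itself was a C followed by 4 or more pyrimidines. In Eif2b5 the start was also a C of the run, but fewer than 4 pyrimidines followed it. The highest members Eef1b2, Eef2 and Eif4a1 had no match within 10 bases. The reads do not show where transcripts start in these cells, so a match describes the annotation only.

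Between the libraries, most members stood higher in replicate 2. Differences are on the log2(TPM + 1) scale, replicate 2 minus replicate 1, which understates those of low genes. Of 62 members with a mean of 1 TPM or more, 55 were higher and 7 lower, with a median of 0.45 against 0.23 over 10480 protein-coding genes under the same limit, of which 71.71% were higher. With counts scaled by TMM factors the split was 44 of 62 higher, and the medians were 0.25 and 0.02. On that scale as on the other the members' median lay above that of all genes by about the same amount, 0.23 against 0.21.

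**Figure D4:**
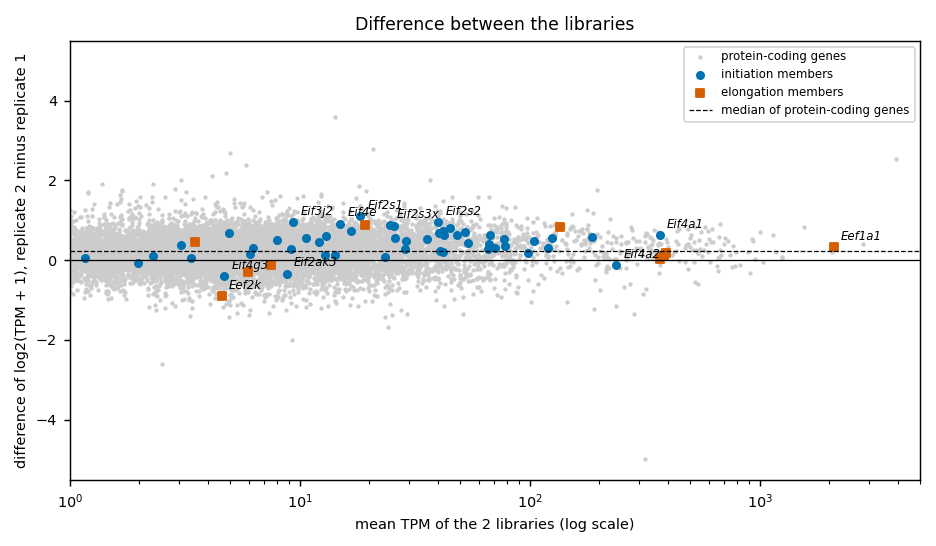
Difference of log2(TPM + 1), replicate 2 minus replicate 1, against mean TPM (log axis) for protein-coding genes of mean TPM 1 or more (grey), initiation members (blue circles) and elongation members (orange squares), with the median of protein-coding genes dashed at 0.23. The eIF2 genes Eif2s1, Eif2s2 and Eif2s3x lie near the top of the members and Eef2k at the bottom.

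Past 2-fold in TPM, 2 members were higher in replicate 2, Eif2s1 (2.245-fold) and Eif3j2 (2.097-fold), against 6.44% of protein-coding genes. One member, Eef2k, was 2-fold lower (0.4579 of replicate 1), against 1.43%. With TMM scaling, DESeq2 size factors or TPM rescaled to nuclear protein-coding genes no member was 2-fold higher, while Eef2k remained 2-fold lower. By these scalings 2.424% to 2.471% of protein-coding genes were 2-fold higher and 3.511% to 3.798% lower. Eef2k was not 2-fold lower by posterior mean TPM or when 1 TPM was added. The count of members past 2-fold was thus not above the background.

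The 3 eIF2 subunit genes were among the 5 members with the highest difference, which were Eif2s1 (1.10), Eif3j2 (0.96), Eif2s2 (0.95), Eif4e (0.92) and Eif2s3x (0.88). By TMM-scaled counts the same genes differed by 0.86, 0.76, 0.74, 0.68 and 0.59. The 5 lowest were Eef2k (-0.91), the scaffold paralog Eif4g3 (-0.40), the kinase Eif2ak3 (-0.33), the methyltransferase Eef2kmt (-0.30) and Eif4a2 (-0.13). By TPM all 14 eIF3 genes and all 5 eIF2B genes were higher in replicate 2, as were 71.71% of protein-coding genes. The median differences of eIF3 and eIF2B were 0.58 and 0.55. Within eIF3 the differences ran from 0.07 to 0.96. Counts of Eif3k (4413 and 4766) and Eif3f (2691 and 3030) rose by less than the TMM-scaled library size (40966759 and 48016968). Neither gene was thus higher in replicate 2 by TMM-scaled counts. The 4 eIF2 kinases went both ways, from -0.33 for Eif2ak3 to 0.37 for Eif2ak2.

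Other measures moved with these differences. The fibroblast markers Acta2, Col1a1, Col1a2 and Col3a1 were each over 2-fold higher in replicate 2, while Thy1 of the same list was at 2.27 and 1.62 TPM and Lum at 0 in both. Across the 62 members the difference correlated with the GC content of the most abundant transcript (38.79% to 69.53%) at Pearson's r = -0.360 and Spearman's rho = -0.282, a description over genes of the same 2 libraries. Their part in the members' differences was not tested.

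The partner genes of translation were detected without exception. Of 11 partners of initiation all were detected, led by the poly(A)-binding protein Pabpc1 at 191.48 and 203.58 TPM, and the helicase Ddx3x was at 36.69 and 59.71 TPM. All 6 termination and rescue genes were detected, with the release factor Etf1 at 26.86 and 47.34 TPM and the recycling factor Abce1 at 16.68 and 35.6 TPM. Abce1 and Paip1 (3.05 and 6.43 TPM), a partner of the poly(A)-binding protein, were over 2-fold higher in replicate 2. Of 6 kinase genes acting on eIF4E and its binding proteins all were detected, with Mtor at 8.65 and 8.11 TPM and the eIF4E kinases Mknk1 and Mknk2 at 4.64 and 4.38 TPM and at 6.02 and 8.33 TPM.

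The 77 cytosolic ribosomal protein genes had a median of 361.9 and 447.3 TPM. Members above that median were Eef1a1, Eef1b2, Eef1g and Eef2 in replicate 1, and Eef1a1 and Eif4a1 in replicate 2. Of the 77, 70 were higher in replicate 2, with a median difference of 0.34, and none was 2-fold apart. Of 8 genes for hypusine and diphthamide, the modifications of eIF5A and eEF2, all were detected, with a median of 7.68 and 6.785 TPM.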

How the data were processed

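Total RNA of ES-E14 cells was read from 2 libraries of 1 group. Per the deposited text file, the assembly was mm10 with annotation M4. The aligner and the quantifier were not given in the sources used here. Per the file headers the authors deposited, for each gene and transcript, FPKM, TPM and an expected count, which can be fractional. The deposited posterior mean TPM was used as a signal value, and the deposited posterior standard deviation of the count as another measure, of reads shared between genes. For transcripts, the deposited share of the gene is in percent.

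GENCODE M21, on the identical assembly GRCm38, gave gene positions, types and names, matched by gene ID for 42462 of 43346 genes; 6 of 334 member transcripts had no match and counted as not protein-coding, and 26248 rows named by a number and 97 spike-in rows were left out. Depth was 43163300 and 45573512 expected counts; Wilson and Poisson intervals are at 95% and cover counting error only, the latter on rounded counts. Antisense and overlapping genes and near-identical copies share reads.

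Detection was TPM of 1 in both libraries; 2-fold calls used TPM among genes of mean TPM 1 or more; log2 differences between the libraries used a pseudocount of 1, and log2 ratios of paralogs none. No test was possible between single libraries. Coding sequences were aligned globally with Biopython 1.88 (match 1, mismatch -1, gap open -5, extend -0.5). Scaling used edgeR 4.0.16 TMM factors and DESeq2 1.42.0 size factors in R 4.3.3, on genes with 10 or more rounded expected counts, and log2 of scaled CPM plus 0.5. Figures were drawn with matplotlib 3.10.9, and the rest ran in Python 3.11.15 with scipy 1.17.1, pandas 2.3.3 and numpy 2.4.6. The computation of 2-fold calls was tested on simulated data, which checks the calculation and not the libraries.

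The members and lists were chosen with earlier results of these data known. The rule named every paralog, the highest and lowest of each group, the 5 highest and 5 lowest differences and members under 1 TPM; other members and all transcripts were named after their values were seen. Pathway genes were examples chosen likewise. Alternatives were other TPM limits, FPKM, posterior mean TPM, expected counts, other scalings and pseudocounts, no filter, single libraries, other transcript and start rules, and, added after seeing the data, protein-coding transcripts only and eIF3 without the eIF3j pair.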

Additional observations from a re-analysis of the deposited data

Results flagged for a closer look

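Rows named by a number alone, which no comparison uses, held 15 expected counts in replicate 2, above the 3 counts that a count of 0 allows, and 1 in replicate 1. They were spread over 26248 rows and name no gene.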

How the results depend on the processing

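Of 60 alternative values for 12 counts, medians and ranges, 42 were labelled as staying and 18 as moved. Staying meant within 1.5 times a reported count, or within 1 SD over the 2 libraries for a range. For ranges with a library left out this label was fixed by arithmetic, since the SD comes from the same 2 values. For the median difference the limit came from the spread across members, not between libraries, and was wide. The number of detected members was 62 with either library alone and 53 at a limit of 5 TPM. Members 2-fold higher in replicate 2 numbered 2, against 0 with TMM factors, DESeq2 size factors or rescaled TPM, 4 without a filter, 4 by protein-coding transcripts and 1 after adding 1 TPM. The share over protein-coding genes was 6.44%, against 2.471%, 2.471%, 2.424%, 17.54%, 8.263% and 2.586% in that order. Members 2-fold lower numbered 1, against 0 by posterior mean TPM and after adding 1 TPM. Here the share over protein-coding genes was 1.43%, against 1.24% and 0.5439%. The mean fold range of eIF2 subunits was 2.243 (2.097 to 2.39 with a library left out) and 1.543 by expected count. For eIF2B it was 2.755 (2.467 to 3.044), 4.626 by count and 3.415 by protein-coding transcripts. For eIF3 it was 29.12 (28.08 to 30.15), 18.89 by count, 60.92 by protein-coding transcripts and 4.184 without the eIF3j pair. For eEF1B it was 3.071 (2.309 to 3.833) and 5.291 by count. The cause of these moves was not tested, except that the last eIF3 value uses fewer genes and counts are not corrected for length. Members with the same leading transcript numbered 23 of 27 at 10 TPM and 9 of 12 at 50 TPM. A pyrimidine start was found in 17 members within 10 bases, in 2 exactly at the start and in 11 with 6 or more following pyrimidines. The shares over all genes were 34.4%, 3.008% and 14.14%. Within 20 bases it was found in 24 members, or 48% against 53.33% of genes. Pairs with the same gene higher in both libraries numbered 26 by TPM, 25 by expected count and 24 by protein-coding transcripts. Of 104 alternative mean log2 ratios of paralogs, 8 reversed. By expected count they were Eif1ax over Eif1a (-0.65), Eif4g1 over Eif4g2 (0.70) and Eif2ak2 over Eif2ak4 (-0.05). By protein-coding transcripts they were the same 3 pairs (-2.18, 0.06 and -0.02) and Eif4a2 over Eif4a3 (-0.85), and by posterior mean TPM Eif4e3 over Eif4e1b (-0.97). The median difference ranged from 0.19 to 0.51 over its alternatives. No paired analysis was possible because the series holds a single group of 2 libraries. Depth limits the 4 undetected members, at 4 to 56 counts.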

Other observations

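The translation factors of mitochondria, which are encoded in the nucleus and serve a separate ribosome, were all detected but low. Their 10 genes had a median of 3.88 and 5.7 TPM, with the elongation factors Tufm at 19.58 and 26.58 TPM and Gfm1 at 17.88 and 23.41 TPM. Tufm, the mitochondrial counterpart of Eef1a1, was thus far below it. Both genes of selenocysteine elongation were detected, the dedicated factor Eefsec at 3.65 and 3.9 TPM and the RNA-binding Secisbp2 at 5.93 and 5.94 TPM, and these differed little between the libraries.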
